A study of Mus musculus with 15 samples.

Results

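The 10 amino acid transporter genes described here were chosen by name, with earlier results of these data known. They were Slc3a2, Slc7a5, Slc7a11, Slc1a5, Slc38a2, Slc38a1, Slc1a4, Slc6a9, Slc7a1 and Slc7a3. They were 10 of the 55291 genes listed in each deposited table of normalized reads. All 10 had a mean of at least 10 normalized reads and entered the main test of each comparison. Their transcripts were compared in a mouse pancreatic ductal adenocarcinoma (PDAC) line, HY19636, in culture and in orthotopic tumors grown from it, with 15 samples in 5 groups of 3. The line was isolated from a tumor of a genetically engineered C57BL/6 mouse with p53 L/+ and Ptf1a-Cre, so all groups, controls included, shared its alleles. The culture groups were control cells (CNT), cells given 25 µM DON for 24 h and cells kept without glutamine (Gln-free cells) for 24 h. The line was routinely grown in DMEM with 10% serum, and the medium and serum of the Gln-free cells are not described. DON is a glutamine analog that inhibits enzymes using glutamine. The tumor groups came from female C57BL/6J mice of 8 to 10 weeks whose pancreas was injected with HY19636 cells. DRP-104 is a prodrug from which DON is released. From 7 days after surgery the mice received 3 mg per kg of DRP-104, or vehicle, once daily into the peritoneum in 2 cycles, each with 5 dosing days and then 2 without, and collection was on day 21. All samples rest on 1 line, and a tumor sample also holds the host's cells. No source says whether the culture replicates came from separate cultures, so p-values within culture measure the spread between these samples, which may be technical.

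Amino acid transporters move amino acids across the plasma membrane. Slc3a2 (4F2hc, CD98) is a heavy chain that brings light chains such as Slc7a5 and Slc7a11 to the cell surface. Slc7a5 (LAT1) exchanges intracellular glutamine for leucine and other large neutral amino acids, and Slc7a11 (xCT) exchanges glutamate for cystine, so both spend a product of glutamine uptake. Slc1a5 (ASCT2), Slc38a1 (SNAT1) and Slc38a2 (SNAT2) carry glutamine itself. Several of these genes are known targets of the amino acid response, in which the kinase GCN2 senses uncharged tRNA and the transcription factor ATF4 binds elements in the targets' regulatory DNA.

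Promoter sequence was read for the members with an entry in the RefSeq promoter table for GRCm38.p6, which were 6 of the 10: Slc7a11, Slc3a2, Slc1a4, Slc38a2, Slc7a1 and Slc6a9. In the 250 bases before each start, 3 motifs were searched on both strands: TGATGNAA, the core of the amino acid response element, TGACNNNGC, the core of the antioxidant response element, and CACGTG, the E-box. The stretch below carries both TGATGNAA matches found among the members, in capitals. It lies on the reverse strand of chr3:50443633-50443699, from base -86 to base -20 relative to the start of Slc7a11, and the matches cover bases -66 to -59 on the strand of the gene and -47 to -40 on the opposite strand.
Slc7a11: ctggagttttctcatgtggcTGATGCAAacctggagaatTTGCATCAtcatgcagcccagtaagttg
Both matches read TGATGCAA on their own strand, and 3.45% of 32851 promoters of the same length held TGATGNAA. TGACNNNGC, held by 10.2% of the promoters, was found in Slc38a2 and in 2 of the 3 promoters listed for Slc6a9, among others. These matches are shown in capitals below, each 5′ to 3′ along its gene, because Slc38a2 and Slc6a9 had the largest differences between DON and Gln-free cells, in opposite directions. The Slc38a2 stretch lies at chr15:96699731-96699771 on the reverse strand and the Slc6a9 stretches at chr4:117849288-117849328 and chr4:117855486-117855526 on the forward strand.
Slc38a2: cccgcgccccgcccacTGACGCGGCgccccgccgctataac
Slc6a9, first: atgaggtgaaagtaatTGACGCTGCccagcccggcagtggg
Slc6a9, second: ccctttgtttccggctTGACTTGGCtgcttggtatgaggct
These 3 matches are on the strand of the gene. CACGTG, held by 6.02% of promoters, was in none of the members' windows. A match describes letters only, and factor binding was not measured.

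The libraries of cultured cells held 25.2 to 48.2 M reads each, and those of tumors 16.3 to 20.7 M. Low counts in culture libraries were mostly even numbers, so a read there may not be 1 fragment, and these depths are not compared as fragments. Control cells 3 was the deepest library, with reads for 19624 genes against 17621 and 17629 in the other control libraries. DRP-104 tumor 1 had reads for 17981 genes against 22140 to 22524 in the other 5 tumors, so tumor differences are given below with and without it. The control columns of the culture tables carry the heading given to vehicle tumors elsewhere in the series; they were read as control cells because each table's name says so, and because 4 or 5 of their 6 fibroblast markers were at 0, with Col1a1 at 20.8 to 26.4 normalized reads in the table with DON cells. The cells matched their label in that all 6 epithelial markers were above 10 normalized reads in every culture library. The summed level of these 6 markers was 379354 to 511169 normalized reads in control cells over both culture tables, 116931 to 125209 in DON cells and 158259 to 173641 in Gln-free cells, so it was lower in every treated library. Its part in the results below was not tested.

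DON was followed by higher transcript levels of 9 of the 10 transporters, and glutamine withdrawal by higher levels of 6. Slc3a2, Slc1a4 and Slc7a1 rose by more than 1 on the log2 scale under both treatments. Slc6a9 rose mainly under DON, and Slc38a2 mainly without glutamine. None of the 10 was called lower in either comparison. Levels below are normalized reads, the reads of a gene divided by 1 scaling factor per library, on a scale common to the 9 culture libraries. Differences from control are on the log2(normalized reads + 1) scale with their standard error (SE), fitted in limma with 3 against 3 libraries on the scale of each deposited table, and a gene was called at a Benjamini-Hochberg adjusted p under 0.05. Among all 13556 genes tested, 68.1% were called under DON and 33.3% were called higher, beside 9 of the 10 members. Because the 10 were chosen with earlier results of these data known, their excess over all genes is a description and not independent support. Among the 13390 genes tested without glutamine, 69.4% were called and 34.5% were called higher. The median difference of the members was 0.66 under DON and 0.39 without glutamine, beside 0.02 and 0.01 over all genes tested. The DON and Gln-free groups did not overlap with the controls for 9 and 6 members, where 71.9% and 73.6% of all genes did not.

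**Figure D1:**
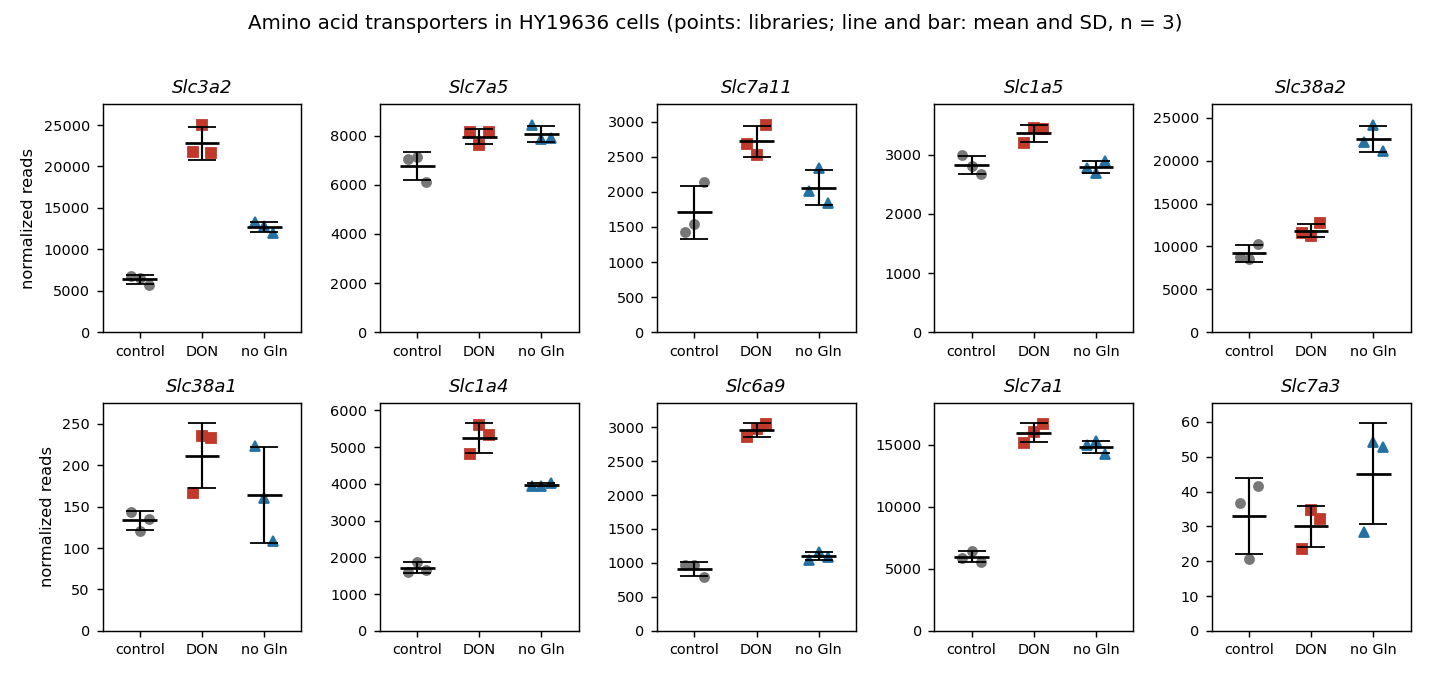
Normalized reads of each transporter (vertical axes, from 0) in the 3 libraries of control, DON-treated and Gln-free HY19636 cells, on 1 common scale. Points are libraries, and lines with bars are the mean and SD of 3 libraries; Slc3a2 in DON cells lies between 21603 and 25040, above all Gln-free libraries (12028 to 13257) and control libraries (5742 to 6833).

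The heavy chain gene Slc3a2 (chr19:8706882-8723369) had the largest difference of the 10 under DON. Its level was 6833, 6551 and 5742 normalized reads in control cells, 21702, 25040 and 21603 in DON cells and 13257, 12795 and 12028 in Gln-free cells. The 3 groups did not overlap, and Gln-free cells stood between the others. Slc3a2 rose by 1.83 (SE 0.0991, adjusted p = 1.58e-09, limma) under DON and by 1.02 (SE 0.0868, adjusted p = 3.92e-07, limma) without glutamine.

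The light chain gene Slc7a5 (chr8:121881150-121907694) moved far less. It had 7057, 7135 and 6127 normalized reads in control cells, 8138, 7618 and 8130 in DON cells and 8445, 7843 and 7893 in Gln-free cells. Each treated library lay above each control library, by a small margin. Its difference was 0.23 (SE 0.0914, adjusted p = 0.0403, limma) under DON, and the call was lost without any 1 of the 3 DON libraries (adjusted p = 0.0555 to 0.137, limma), at the threshold without control cells 3 (adjusted p = 0.05002, limma), where the difference was 0.15, and with no filter on low genes (adjusted p = 0.0713, limma). Without glutamine Slc7a5 rose by 0.28 (SE 0.0845, adjusted p = 0.0106, limma), which was lost without Gln-free cells 1 (adjusted p = 0.0577, limma).

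The cystine-glutamate exchanger gene Slc7a11 (chr3:50364936-50443613) had 1432, 1543 and 2143 normalized reads in control cells, 2682, 2519 and 2956 in DON cells and 2006, 2334 and 1840 in Gln-free cells. The DON libraries stood above all others, and control cells 3 reached into the range of the Gln-free libraries. Slc7a11 rose by 0.68 (SE 0.131, adjusted p = 0.000381, limma) under DON. Without glutamine the difference was 0.31 (SE 0.143) and was not called (adjusted p = 0.0699, limma). Without control cells 3, the deepest library, that difference was 0.49 (adjusted p = 0.000245, limma), so 1 control library decided the call.

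Among the glutamine carriers, Slc38a2 (chr15:96687394-96699698) was the one with a large difference. It is a sodium-coupled carrier of small neutral amino acids. Its level was 8741, 8564 and 10324 normalized reads in control cells, 11610, 11217 and 12672 in DON cells and 22194, 24187 and 21174 in Gln-free cells. Gln-free cells were highest and DON cells in between, with no overlap between groups, whereas for Slc3a2 DON cells were highest. Slc38a2 rose by 1.32 (SE 0.0954, adjusted p = 9.41e-08, limma) without glutamine and by 0.36 (SE 0.0956, adjusted p = 0.00457, limma) under DON.

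Its relative Slc38a1 (chr15:96571418-96642913) was low, with 144, 121 and 136 normalized reads in control cells, 166, 236 and 233 in DON cells and 224, 161 and 108 in Gln-free cells. The Gln-free libraries straddled the controls. Slc38a1 rose by 0.64 (SE 0.191, adjusted p = 0.00864, limma) under DON, and its difference without glutamine was 0.26 (SE 0.24, adjusted p = 0.342, limma). That call changed with 1 library: without Gln-free cells 3 the difference was 0.53 (adjusted p = 0.0475, limma).

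Slc1a5 (chr7:16781346-16798274), an exchanger that brings glutamine into many tumor cells, changed little. It had 2990, 2806 and 2680 normalized reads in control cells, 3193, 3454 and 3432 in DON cells and 2774, 2696 and 2899 in Gln-free cells. The DON libraries were the highest, and the Gln-free libraries lay within the range of the controls. The difference under DON was 0.24 (SE 0.0887, adjusted p = 0.0266, limma), and it was not called without DON cells 2 or 3 or control cells 2 (adjusted p = 0.0564 to 0.0926, limma). Without glutamine it was 0.01 (95% interval -0.17 to 0.19, adjusted p = 0.96, limma).

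Slc1a4 (chr11:20302180-20332713), the ASCT1 exchanger of serine, alanine and cysteine and a paralog of Slc1a5, behaved differently from that paralog. It had 1614, 1881 and 1664 normalized reads in control cells, 4805, 5608 and 5318 in DON cells and 3953, 3956 and 4021 in Gln-free cells. The groups did not overlap, and the Gln-free libraries were close to each other. Slc1a4 rose by 1.60 (SE 0.0963, adjusted p = 4.43e-09, limma) under DON and by 1.23 (SE 0.0864, adjusted p = 7e-08, limma) without glutamine.

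Slc6a9 (chr4:117834506-117875198) encodes GlyT1, a sodium- and chloride-dependent carrier of glycine. Its level was 970.5, 972 and 793 normalized reads in control cells, 2853, 2971 and 3049 in DON cells and 1047, 1161 and 1095 in Gln-free cells. The DON libraries stood far above both other groups. Slc6a9 rose by 1.69 (SE 0.105, adjusted p = 5.99e-09, limma) under DON and by 0.30 (SE 0.108, adjusted p = 0.0253, limma) without glutamine. The smaller rise was not called without Gln-free cells 2 (adjusted p = 0.107, limma) or 3 (adjusted p = 0.0601, limma), and lay at the threshold without control cells 3 (adjusted p = 0.05003, limma).

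Slc7a1 (chr5:148327410-148399904) encodes CAT1, a carrier of arginine, lysine and ornithine. It had 5913, 6455 and 5583 normalized reads in control cells, 15153, 16068 and 16684 in DON cells and 14951, 15272 and 14253 in Gln-free cells. Both treated groups stood well above the controls and overlapped each other. Slc7a1 rose by 1.41 (SE 0.0899, adjusted p = 7.86e-09, limma) under DON and by 1.33 (SE 0.0817, adjusted p = 2.16e-08, limma) without glutamine.

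Slc7a3 (chrX:101079210-101086020), the related cationic amino acid carrier CAT3, was at the low end of what was tested. It had 36.6, 20.7 and 41.6 normalized reads in control cells, 23.4, 34.6 and 32.2 in DON cells and 28.5, 54.3 and 52.7 in Gln-free cells. All 3 groups overlapped. The difference was -0.10 (95% interval -0.89 to 0.69, adjusted p = 0.821, limma) under DON and 0.47 (95% interval -0.33 to 1.27, adjusted p = 0.276, limma) without glutamine, and no change was detected.

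**Figure D2:**
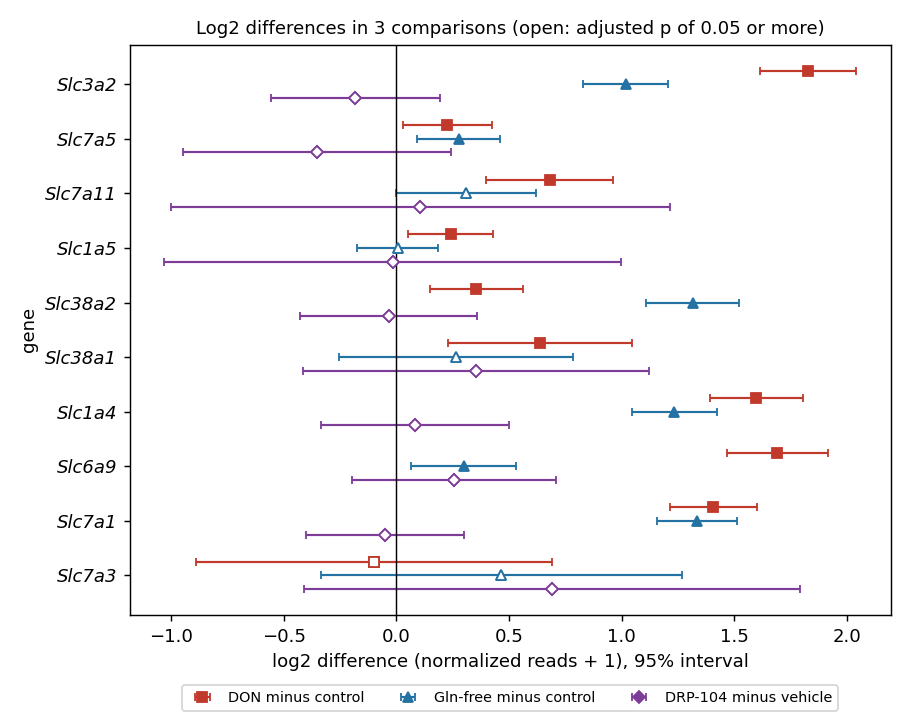
Log2 difference of each transporter with its 95% interval (horizontal axis) in DON against control cells, Gln-free against control cells and DRP-104 against vehicle tumors, 3 against 3 libraries each. Filled symbols mark an adjusted p under 0.05 in limma; 9 DON symbols, 6 Gln-free symbols and 0 tumor symbols are filled, and the tumor intervals are wider.

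Because both culture comparisons share the 3 control libraries, DON and Gln-free cells were also set against each other directly, with 9 libraries in the fit. Of the 10 transporters, 5 were higher in DON cells, 1 was higher in Gln-free cells and 4 did not pass the test. Among the 13514 genes tested, 63.3% were called, 31.0% higher and 32.3% lower in DON cells, and 71.7% did not overlap between these groups, as 6 members did not. The largest difference was that of Slc6a9, 1.43 (SE 0.0944, adjusted p = 5.8e-09, limma), followed by Slc3a2 at 0.84 (SE 0.0856, adjusted p = 5.31e-07, limma). Slc38a2 went the other way, at -0.93 (SE 0.0871, adjusted p = 2.27e-07, limma). Slc1a4 differed by 0.40 (SE 0.0826, adjusted p = 0.000621, limma) and Slc1a5 by 0.27 (SE 0.0756, adjusted p = 0.0059, limma). Slc7a11 differed by 0.40 (SE 0.131, adjusted p = 0.014, limma), a call lost without DON cells 3 (adjusted p = 0.0619, limma) or Gln-free cells 3 (adjusted p = 0.0703, limma).

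The 4 transporters that did not pass were Slc7a1, Slc7a5, Slc38a1 and Slc7a3. The difference of Slc7a1 had a 95% interval of -0.05 to 0.27 and that of Slc7a5 one of -0.18 to 0.15. For Slc38a1 the interval was -0.09 to 0.90, and without Gln-free cells 1 the difference was 0.66 (adjusted p = 0.0222, limma). For Slc7a3 it was -1.30 to 0.24.

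**Figure D3:**
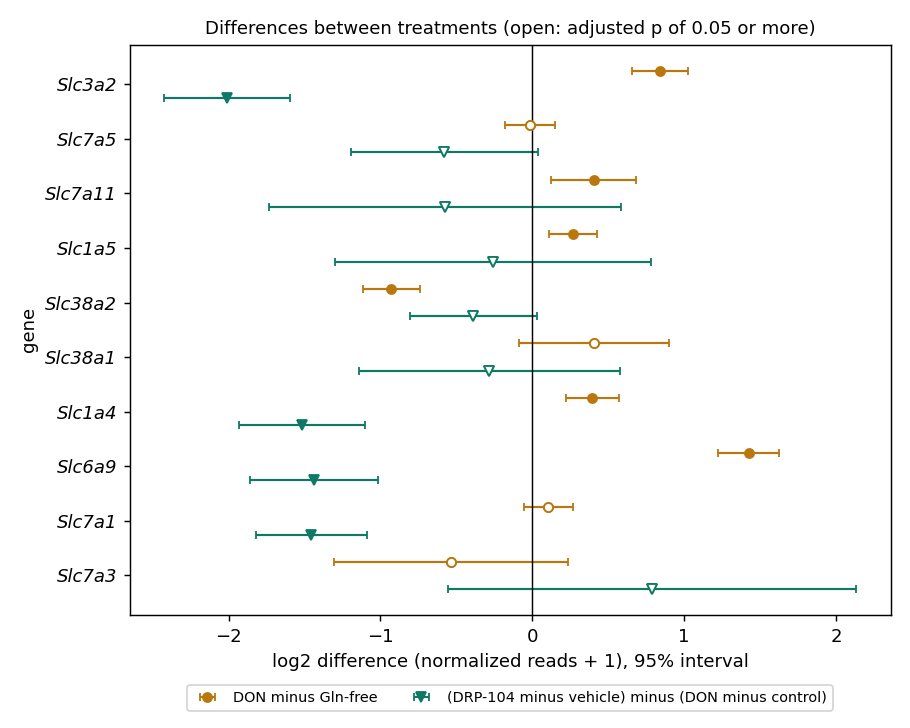
Log2 difference between DON and Gln-free cells (circles), and the difference under DRP-104 in tumors minus that under DON in cells (triangles), with 95% intervals on the horizontal axis. Filled symbols mark an adjusted p under 0.05 in limma; among the circles only Slc38a2 is filled on the negative side, at -0.93, and 4 triangles are filled, from -2.01 to -1.44.

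Levels of different genes were compared per length, as RPKM, the reads of a gene scaled to its listed length in kilobases and to the depth of the library. In control cells Slc3a2 (70.0 ± 3.55, SD, n = 3), Slc38a2 (61.8 ± 9.28) and Slc7a5 (59.4 ± 2.5) led, and neighbours among these 3 overlapped. Slc1a5 (31.1 ± 1.03), Slc7a1 (25.7 ± 1.18) and Slc1a4 (13.5 ± 1.03) followed without overlap. Slc6a9 (8.09 ± 0.588) and Slc7a11 (5.76 ± 1.56) overlapped each other, and Slc38a1 (0.533 ± 0.0554) and Slc7a3 (0.373 ± 0.134) were lowest and overlapped.

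The order changed with treatment. In DON cells Slc3a2 stood first at 275 ± 22.4 RPKM, clear of Slc38a2 (86.8 ± 6.15), while Slc7a5 (76.8 ± 3.22) and Slc7a1 (75.5 ± 4.05) overlapped. Slc7a1 passed Slc1a5 in both treated groups, and Slc1a4 (45.3 ± 3.53 in DON cells) reached the range of Slc1a5 (40.6 ± 1.86). In Gln-free cells Slc38a2 (165 ± 10.4) and Slc3a2 (153 ± 6.23) shared the top and overlapped. In tumors Slc38a2 stood first in both groups, at 74.4 ± 4.37 with vehicle and 72.4 ± 12.2 with DRP-104, above Slc3a2 at 52.5 ± 4.55 and 46.2 ± 9.18.

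In amino acid transport the heavy chain works as a partner of a light chain, so its level was set against the summed level of the 6 light chain genes that pair with it, Slc7a5, Slc7a6, Slc7a7, Slc7a8, Slc7a10 and Slc7a11. The light chain sum was 117, 119 and 117 RPKM in control cells, 127, 119.8 and 129 in DON cells and 158, 148 and 153 in Gln-free cells. The heavy chain was 73.4, 70.2 and 66.3 in control cells, 261, 301 and 263 in DON cells and 158, 153 and 146 in Gln-free cells. The ratio of heavy to light chain transcripts was 0.595 ± 0.0306 (SD, n = 3) in control cells, 2.20 ± 0.268 in DON cells and 0.996 ± 0.0407 in Gln-free cells. The 3 groups did not overlap, and with 3 against 3 libraries an exact two-sided permutation test cannot give a p below 0.1. In tumors the ratio was 0.625 ± 0.0495 with vehicle and 0.606 ± 0.126 with DRP-104, and these groups overlapped.

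**Figure D4:**
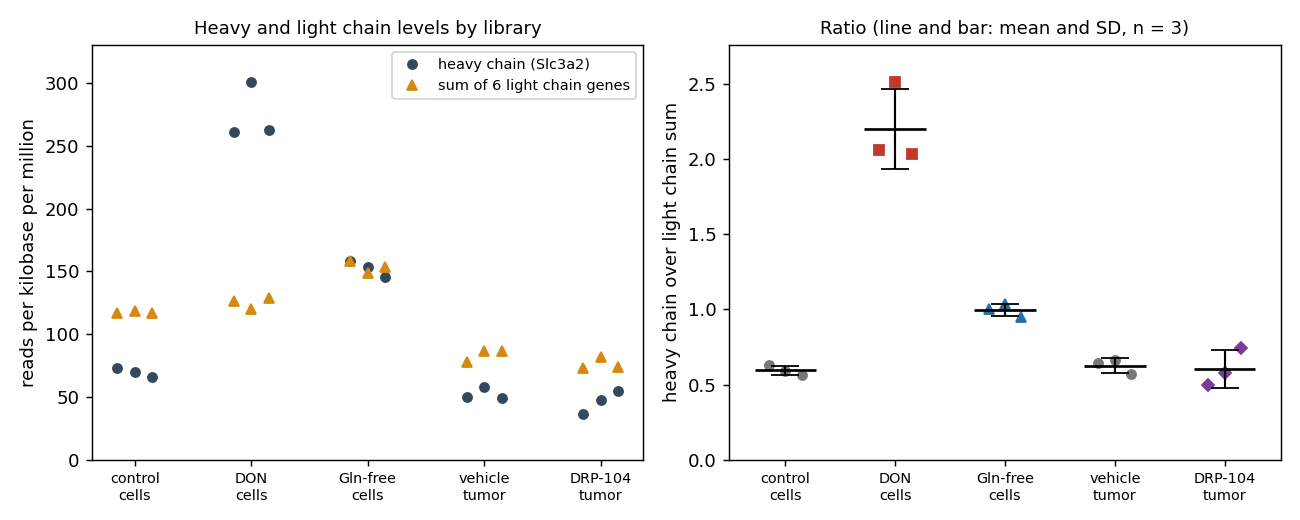
Left, RPKM of the heavy chain gene Slc3a2 (circles) and of 6 light chain genes summed (triangles) in each library; right, their ratio by library with the mean and SD of 3 libraries. The ratio is above 2 in the 3 DON libraries, 0.952 to 1.03 in Gln-free cells and 0.566 to 0.627 in control cells.

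A wider set of amino acid transporter genes was counted in 3 lists. Of 35 other plasma membrane transporters, 9 could be tested under DON, where 0 were called higher and 7 lower, beside 33.3% and 34.7% of all genes. Without glutamine 11 could be tested, where 4 were called higher and 4 lower, beside 34.5% and 34.9% of all genes. Some calls come from genes that passed the filter of a mean of 10 only through the group in which they were high, and such genes had to differ: Slc1a2, a glutamate carrier, among the 7 lower under DON, and Slc7a2 and Slc3a1 among the 4 higher without glutamine. The light chain gene Slc7a6, which pairs with Slc3a2 to carry cationic and neutral amino acids, fell by 0.56 (adjusted p = 3.38e-05, limma) under DON and rose by 0.38 (adjusted p = 0.000673, limma) without glutamine. Slc7a7, another such light chain, fell by 0.75 (adjusted p = 0.000251, limma) under DON and by 0.34 (adjusted p = 0.0303, limma) without glutamine. Slc7a2, the arginine carrier CAT2, had means of 8.39 normalized reads in control and 27.8 in Gln-free cells, and Slc3a1, the heavy chain of the renal cystine carrier, 7.99 and 20.6, with overlapping groups for Slc3a1; neither could be tested under DON. Slc7a10, a light chain, and Slc38a5, the glutamine carrier SNAT5, were listed at 0 in the 9 culture libraries.

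Of 9 lysosomal and endomembrane transporters, 8 were tested in each culture comparison. Under DON, 5 were called higher and 2 lower, and without glutamine 2 were called higher and 2 lower, the latter no more than the shares of all genes given above. Differences over these 8 genes ran from -0.85 to 2.02 under DON, and the 2 called lower are not named below. Slc38a7, a lysosomal exporter of glutamine, rose by 1.31 (adjusted p = 4.62e-08, limma) under DON and by 0.49 (adjusted p = 0.00181, limma) without glutamine. Slc38a9, which reports lysosomal arginine to mTORC1, rose by 1.21 (adjusted p = 3.53e-06, limma) under DON, with a difference of -0.07 (adjusted p = 0.701, limma) without glutamine. The 2 culture treatments differed directly for both, by 0.85 and 1.32 (adjusted p = 3.05e-06 and 1.43e-06, limma).

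Of 12 mitochondrial amino acid carriers, 10 were tested in each culture comparison, with 3 called higher and 4 lower under DON and 5 higher and 4 lower without glutamine. The counts under DON are near the shares of all genes called in each direction. Slc25a13, a carrier that exchanges aspartate for glutamate, fell by 1.06 (adjusted p = 5.6e-07, limma) under DON and by 1.72 (adjusted p = 1.82e-08, limma) without glutamine. Its paralog Slc25a12 fell by 0.91 (adjusted p = 5.87e-06, limma) under DON and rose by 0.27 (adjusted p = 0.0227, limma) without glutamine. Slc25a22, a glutamate carrier, rose by 0.58 (adjusted p = 0.000623, limma) without glutamine, and its difference under DON was 0.30 (adjusted p = 0.0692, limma). Sfxn1, the mitochondrial serine carrier, fell by 0.62 (adjusted p = 1.86e-05, limma) under DON, with a difference of 0.04 (adjusted p = 0.693, limma) without glutamine.

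The genes whose profile over the 9 culture libraries was most like that of a member were taken for the 3 members with the widest range of group means. Pearson's r was computed on the log2 scale against 10430 genes with a mean of at least 100, and the 9 libraries share 3 groups. For Slc3a2 these genes were Mthfd2 (r = 0.997), a mitochondrial folate enzyme, Tars (0.996), a threonyl-tRNA synthetase, and Acot13 (0.996). For Slc6a9 they were Ttc17 (0.997), Scpep1 (0.996) and Pabpc4 (0.995). For Slc1a4 they were Tarbp1 (0.995), Gfra1 (0.994) and Lhfpl2 (0.994).

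In tumors, none of the 10 transporters passed the test between DRP-104 and vehicle. No gene of the 15454 tested was called (0%), 5.01% had an unadjusted p under 0.05 in limma, and 0 members did. edgeR on the recovered reads called 0 genes and DESeq2 called 56, with 0 members among them in either. The 2 tumor groups overlapped for all 10 members, where 10.6% of all genes did not overlap. The median difference of the members was 0.03, beside -0.01 over all genes tested. In a tumor, fewer cells of a type and less RNA per cell cannot be told apart.

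**Figure D5:**
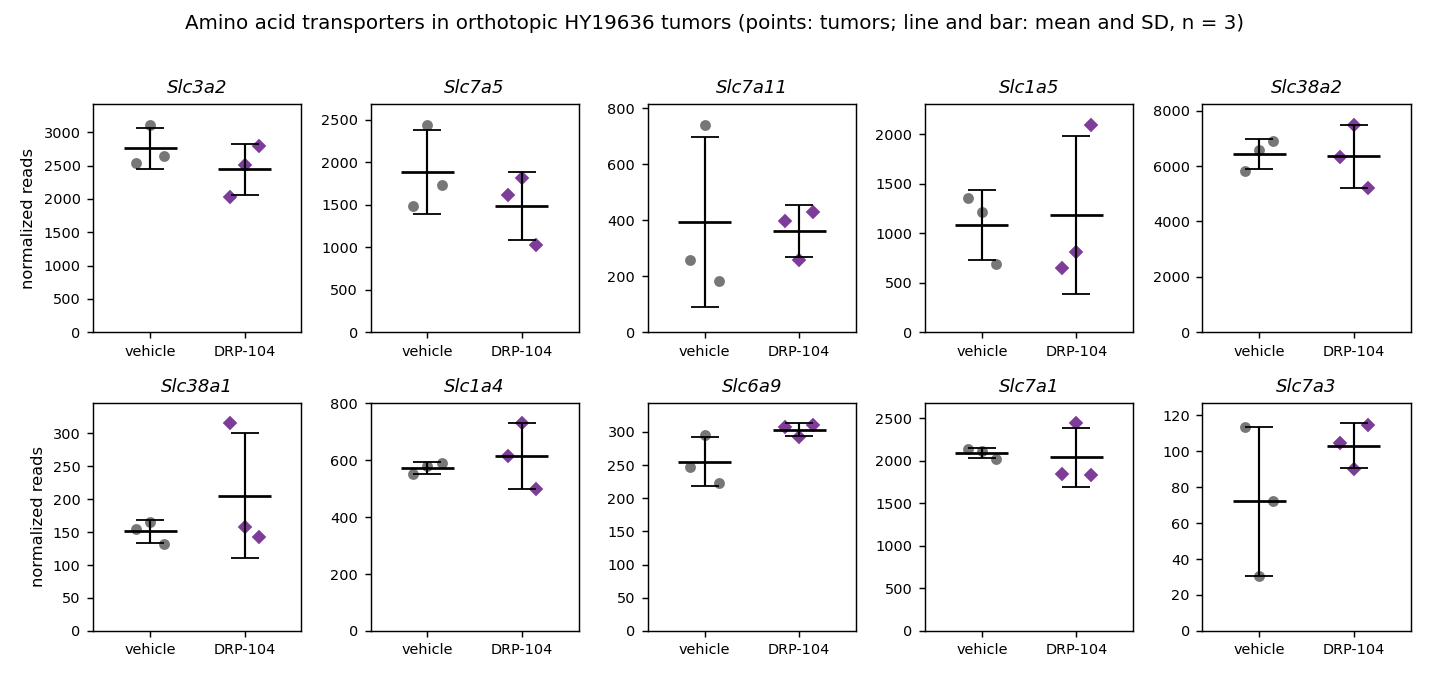
Normalized reads of each transporter (vertical axes, from 0) in 3 vehicle and 3 DRP-104 tumors. Points are tumors, and lines with bars are the mean and SD of 3; the 2 groups overlap in each panel, and Slc1a5 with DRP-104 runs from 646 to 2094.

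Slc3a2 had 2537, 3115 and 2639 normalized reads in vehicle tumors and 2033, 2515 and 2794 in DRP-104 tumors. The range with DRP-104 reached further down, and both groups overlapped. The difference was -0.18 (95% interval -0.56 to 0.19, adjusted p = 0.925, limma), and -0.05 without DRP-104 tumor 1. Slc7a5 had 1483, 2443 and 1732 normalized reads with vehicle and 1609, 1813 and 1032 with DRP-104. Vehicle tumor 2 was the highest and DRP-104 tumor 3 the lowest, and the difference was -0.35 (95% interval -0.95 to 0.24), or -0.43 without DRP-104 tumor 1.

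Slc7a11 had 258, 742 and 184 normalized reads with vehicle and 399, 257 and 429 with DRP-104. Vehicle tumor 2 stood above the other 5 tumors. The difference was 0.11 (95% interval -1.003 to 1.22), 0.02 without DRP-104 tumor 1 and 0.69 without vehicle tumor 2 (adjusted p = 0.9996, limma).

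Slc38a2 had 5834, 6597 and 6905 normalized reads with vehicle and 6328, 7497 and 5218 with DRP-104, and its difference was -0.03 (95% interval -0.43 to 0.36), or -0.04 without DRP-104 tumor 1. The vehicle values lay inside the range of the DRP-104 values. Slc38a1 had 155.5, 166 and 132 with vehicle and 315, 158 and 143 with DRP-104. Its highest value was in DRP-104 tumor 1, and the difference of 0.35 (95% interval -0.41 to 1.12) was -0.0004 without that tumor.

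Slc1a5 had 1352, 1217 and 685 normalized reads with vehicle and 646, 805 and 2094 with DRP-104. DRP-104 tumor 3 was the highest of all. The difference was -0.02 (95% interval -1.03 to 0.997), 0.32 without DRP-104 tumor 1 and -0.53 without DRP-104 tumor 3, so its sign rested on single tumors. In that tumor the 6 T cell markers summed to 1137 normalized reads, with all 6 detected, against 13.8 and 27.8 in the other DRP-104 tumors, where Cd3e and Cd8a were at 0, and 18.6 to 72.4 in vehicle tumors; the part of T cells in the Slc1a5 value was not tested.

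Slc1a4 had 551, 579.8 and 591 normalized reads with vehicle and 615, 730.2 and 499 with DRP-104. Slc6a9 had 247, 296 and 223 with vehicle and 308, 292 and 309.8 with DRP-104. Slc7a1 had 2135, 2118 and 2020 with vehicle and 1846, 2439 and 1833 with DRP-104. In each of these 3 genes the groups overlapped. Their differences were 0.08 (95% interval -0.33 to 0.50), 0.26 (-0.20 to 0.71) and -0.05 (-0.40 to 0.30), and without DRP-104 tumor 1 they were 0.07, 0.25 and 0.0164. Slc7a3 had 113.5, 30.6 and 72.2 with vehicle and 105, 89.97 and 115 with DRP-104, and its difference was 0.69 (95% interval -0.41 to 1.79), 0.68 without DRP-104 tumor 1 and 0.18 without vehicle tumor 2.

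Summed levels of some host cell markers did not overlap between the tumor groups, and no test was run on the sums. All 6 fibroblast markers were detected in every tumor. Their sum was 38485 to 81811 normalized reads with vehicle and 18284 to 31803 with DRP-104, so these groups did not overlap. Singly, Col1a1, Col1a2 and Col3a1 did not overlap between the groups, whereas Dcn, Lum and Pdgfrb did. In the paper, staining for podoplanin, aSMA and PDGFR found no significant change in cancer-associated fibroblasts. That staining classified cells by protein, whereas the sums here are of transcripts, so the measures are not alike. The sum of the 4 endothelial markers did not overlap either, at 1945 to 2347 with vehicle and 1164 to 1878 with DRP-104. The 6 epithelial markers summed to 116747 to 161328 with vehicle and 130197 to 173678 with DRP-104, which overlapped. Sums of macrophage, T cell, acinar and islet markers overlapped as well. Of all genes tested in tumors, 10.6% did not overlap. The part of these shifts in the transporter values was not tested.

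A separate deposited table of tumors in FPKM (fragments scaled to gene length and library depth) was examined for the same genes. Its columns name the groups, but same-numbered columns of both tumor tables correlated at -0.14 to 0.33 over 10201 genes, so its columns were used as groups and not matched to the tumors above. Of 14199 genes tested, 0% were called and 7.61% had an unadjusted p under 0.05 in limma, and 0 of the 10 members were called. The groups did not overlap for 3 members, Slc7a11, Slc1a4 and Slc7a1, beside 19.3% of all genes. Slc7a11 was 2.13 ± 0.830 FPKM (SD, n = 3) with vehicle and 1.17 ± 0.455 with DRP-104, a difference of -0.52 (SE 0.242, adjusted p = 0.629, limma), opposite in sign to that in normalized reads. Slc1a4 was 8.44 ± 0.226 with vehicle and 7.56 ± 0.628 with DRP-104, and Slc7a1 was 16.2 ± 1.19 and 19.9 ± 1.89, with differences of -0.14 and 0.28. Both were also opposite in sign to the differences in normalized reads.

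The difference under DRP-104 in tumors was tested against the difference under DON in cells, in 1 fit of 12 libraries. The agent, dose, route, duration and surroundings of the cells all differ between these experiments and cannot be told apart. Among 15070 genes tested, 33.1% were called, 19.1% with a higher and 14.0% with a lower difference in tumors. Of the transporters, 4 were called, all with a smaller difference in tumors: Slc3a2 by -2.01 (SE 0.192, adjusted p = 7.99e-06, limma), Slc1a4 by -1.52 (SE 0.193, adjusted p = 6.8e-05, limma), Slc7a1 by -1.46 (SE 0.17, adjusted p = 3.53e-05, limma) and Slc6a9 by -1.44 (SE 0.195, adjusted p = 0.000116, limma). These are the 4 with the largest differences under DON. For the other 6 the interval of this difference spanned 0, from -1.73 to 0.58 for Slc7a11 to -0.81 to 0.03 for Slc38a2. The epithelial marker sum fell in DON cells and overlapped between tumor groups, as given above. The fibroblast marker sum, at most 26.4 in culture, was lower in DRP-104 tumors. Their part in these 4 differences was not tested.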

How the data were processed

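RNA was measured by bulk RNA-seq in 15 samples in 5 groups of 3. According to the study's methods, Novogene made the libraries, aligned reads with HISAT2 and ran DESeq2, without versions. The submitters' notes also name STAR 2.5, CASAVA and GRCm39 without a role; coordinates in the deposited FPKM table matched GRCm38 for 24919 of 34490 genes looked up in GENCODE M21, and for 7 of the 10 transporters (not Slc7a11, Slc1a5 or Slc38a2). The counter and use of strand are not given in the sources used here.

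In the 3 deposited comparison tables the signal, made by the authors, is a gene's read count over a size factor that each library has within its table. Division by the value of 1 read gave whole reads for at least 99.958% of values (tolerance 0.0051), and control reads were equal in both culture tables for 55291 of 55291 genes. Among values of 1 to 20 reads, 69.6% to 72.7% were even in culture libraries and 41.9% to 46.5% in tumors, so a fragment may have been counted as more than 1 read in culture, which was not tested. The authors' FPKM table covers the tumors only. Fold changes and p-values in the deposited tables are the authors' own comparisons and were not used.

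The test was limma 3.58.1 (trend, R 4.3.3) on log2(value + 1), for genes with a mean of at least 10 (FPKM: 0.5), adjusted over all genes tested, at a threshold of 0.05. DON and Gln-free cells were rescaled together by medians of ratios. The tumor-cell difference compared both tables in 1 fit, which shares 1 estimate of spread. edgeR 4.0.16 and DESeq2 1.42.0 on recovered reads, pseudocounts of 0.5 and 5, no filter, a mean of at least 50, quantile normalization, array weights, a replicate block and leaving out each library were alternatives. The limma fit, with and without the replicate block, and the edgeR and DESeq2 fits were tested on simulated counts. The other steps were not. Counts without molecular identifiers are not independent molecules. Per-length levels used the gene lengths in the FPKM table.

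The 10 genes and the lists were chosen with earlier results of these data known. The rule named all 10, their relatives in the wider lists, and the 3 most alike genes for each of the 3 members with the widest range. Not all of these relatives are given above. Replicate numbers were not used to pair the samples in the main fits. 1 allele of the line and 1 promoter stretch are not reported here.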

Additional observations from a re-analysis of the deposited data

Results flagged for a closer look

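The difference under DRP-104 in tumors and that under DON in cells were not equal for 4 transporters by a direct test of 1 against the other (limma, adjusted over 15070 genes, of which 33.1% were called). The tumor difference minus the cell difference was -2.01 for Slc3a2, -1.52 for Slc1a4, -1.46 for Slc7a1 and -1.44 for Slc6a9 on the log2 scale. Each of the 4 rose in all 3 DON libraries against all 3 control libraries, and in tumors their groups overlapped. Of all genes tested, 71.9% did not overlap between DON and control cells, and 10.6% did not overlap between the tumor groups.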

How the results depend on the processing

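Of 817 transporter differences recomputed under alternatives, 759 kept their direction and side of the threshold, 14 were no longer called, 6 became called and 38 changed sign, none of the latter with an adjusted p under 0.05. The number of transporters called ranged from 7 to 9 for DON, 5 to 6 without glutamine, 0 to 0 in tumors, 5 to 7 between DON and Gln-free cells and 4 to 6 for tumors against cells. Of all genes tested, 68.1%, 69.4%, 0%, 63.3% and 33.1% were called in the main fits of these comparisons. Quantile normalization moved the median of all genes by 0.10 under DON and by -0.12 for tumors against cells. With it, the difference of Slc1a5 without glutamine was -0.0467, those of Slc1a5 and Slc38a2 in tumors 0.0329 and 0.0133, and that of Slc7a5 between DON and Gln-free cells 0.0625 (0.00338 in edgeR); Slc7a5 (-0.76, adjusted p = 0.0381, limma) and Slc38a2 (-0.55, adjusted p = 0.0249, limma) then also differed between tumors and cells. In tumors, Slc7a11 and Slc1a5 were -0.12 and 0.13 in edgeR and -0.12 and 0.13 in DESeq2. In the FPKM table Slc7a11 was -0.52, Slc7a5 0.0353, Slc3a2 0.12, Slc1a5 0.14, Slc1a4 -0.14 and Slc7a1 0.28. Leaving out 1 library at a time, Slc7a3 under DON ran from -0.39 to 0.0872, Slc1a5 without glutamine from -0.0271 to 0.0453 and Slc7a5 between DON and Gln-free cells from -0.0369 to 0.0164. In tumors Slc1a5 ran from -0.53 to 0.32, Slc38a1 from -0.000434 to 0.57, Slc7a1 from -0.18 to 0.0212, Slc1a4 from -0.0500 to 0.22, Slc7a11 from -0.31 to 0.69 and Slc38a2 from -0.16 to 0.0994, and for tumors against cells Slc1a5 ran from -0.77 to 0.0780 and Slc7a11 from -0.99 to 0.0122. Slc38a2 was also called for tumors against cells without DRP-104 tumor 2 (-0.52, adjusted p = 0.0429, limma). The cause of these shifts was not tested. Same-numbered libraries had r from -0.03 to 0.07 in culture and -0.36 to 0.04 in tumors. Differently numbered tumors had r from -0.32 to 0.46, so with 3 libraries per group these values cannot exclude pairing. No source gives a pairing, and the numbers were not used as pairs in the main fits. With the replicate block, 9, 6, 0, 6 and 4 transporters were called in the same order of comparisons. Of all genes tested, 9216 of 13556, 9056 of 13390, 0 of 15454, 8456 of 13514 and 4075 of 15070 were called with it. Slc7a5 under DON was then 0.23 (adjusted p = 0.0466, limma).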
